A study of Mus musculus with 4 samples.

Results

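The BCL2 family decides at the mitochondrion whether a stressed cell lives or dies, and 10 of its genes were followed here in cultured keratinocytes (KCs), which make up most of the epidermis. The genes were chosen by name from the gene tables, by membership of the family: Bcl2, Bcl2l1, Mcl1, Bcl2l15, Bcl2l11, Bak1, Bid, Bik, Bad and Bmf, 10 of 25814 genes listed. For 1 of them, Bcl2l15, a measured value also entered the choice, since its lower level in the Nfat5-Knockout libraries had been seen. That difference is therefore given as a description without a test. The other 9 were listed as members of the family, with earlier results of these data known. KCs were prepared from tails of adult 129/sv mice and cultured without treatment, in a serum-free medium with 0.06 mM calcium. One group of 2 libraries came from Wildtype (WT) mice and the other group of 2 libraries from Nfat5-Knockout (Nfat5-/-) mice, littermates of WT animals, that carry a disrupted gene for the transcription factor NFAT5 in all their cells. All animals shared the 129/sv background, the tails were shipped overnight on ice before the cells were prepared, and polyadenylated RNA was sequenced. Because the gene is disrupted in the whole animal, effects of Nfat5 in the KCs and of the body they were taken from cannot be told apart.

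In healthy cells the pro-survival proteins BCL2, BCL-XL (encoded by Bcl2l1) and MCL1 hold the effectors BAX and BAK (encoded by Bax and Bak1) in check. BH3-only proteins such as BIM (Bcl2l11), BID, BAD, BMF and BIK are made or activated under stress, bind the pro-survival proteins or the effectors, and so free the effectors to open pores in the outer mitochondrial membrane. Cytochrome c then leaves the mitochondrion and caspases are activated. In the epidermis, where cells are shed constantly, BCL-XL and MCL1 are the best known guards of KC survival.

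Bak1, Mcl1 and Bcl2l1 were the most abundant of the 10 RNAs in both genotypes, and their levels differed little between the groups. Bcl2l15, a short family member whose role is not settled, was at 25.5 ± 2.18 RPKM (SD, n = 2) in WT and at 11.9 ± 2.80 RPKM (SD, n = 2) in Nfat5-/- KCs. The BH3-only genes Bcl2l11 and Bmf had higher levels in both Nfat5-/- libraries than in both WT libraries, but neither passed the test across all genes. Outside the 10, 9 family genes were tested, 8 with a positive and 1 with a negative fold change. The BH3-only gene Pmaip1, which encodes NOXA, was the sole one that passed, and its level was higher in Nfat5-/- KCs. RPKM, reads scaled to exon length in kb and to the total of mapped reads, is the scale on which levels are given, because it allows genes of different length to be compared.

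The libraries held between 16219445 and 23494436 gene reads, and 3 reads corresponded to 0.128 to 0.185 CPM (counts scaled to library size). RNA from Nfat5 itself was at 1.67 and 3.002 RPKM in the WT libraries, against 2.02 and 2.78 RPKM in Nfat5-/- replicates 1 and 2 (log2 fold change 0.09, SE 0.26, edgeR adjusted p = 0.913). The ranges overlapped, so the genotype labels could not be checked from this gene, and which exons the allele lacks is not given in the sources used here. The libraries are accordingly those labelled Nfat5-Knockout wherever Nfat5-/- is written. The basal KC markers Krt5 and Krt14 were at 4990 RPKM or more in each library. Of the 8 KC markers tested 3 had a positive and 5 a negative fold change, and 0 passed. Krt15, on the same list, did not exceed 0.440 RPKM. Itga6 was at 160 and 135 RPKM in the WT libraries, against 107 and 118 RPKM in Nfat5-/- (log2 fold change -0.42, edgeR adjusted p = 0.206). Summed marker levels of fibroblasts did not exceed 1.83 RPKM and those of endothelial cells 0.777 RPKM. Melanocyte markers summed to 7.81 and 7.49 RPKM in the WT libraries, against 2.32 and 3.29 RPKM in Nfat5-/- replicates 1 and 2, and 1 of 6 tested passed, Tyrp1, which fell by 2.04 on the log2 scale (adjusted p = 0.0203). Smooth muscle and contractile markers summed to 184 and 151 RPKM in the WT libraries, against 518 and 819 RPKM in Nfat5-/-, and 4 of 4 tested rose, while the smooth muscle marker Des was at 0.0199 RPKM or below. The labels do not tie a library to an animal or culture, so p-values measure the spread between these libraries only, which may be technical.

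The test across all genes was edgeR's quasi-likelihood test with Benjamini-Hochberg adjustment over 12614 genes. It called 160 genes, 119 higher and 41 lower in Nfat5-/- KCs, which is 1.27% of those tested, and 1846 genes had an unadjusted p under 0.05. Of the 10 family genes 9 had enough reads to enter the test. Beside Bcl2l15, whose difference had entered the choice, 8 were tested and 0 were called by edgeR or by DESeq2, while 2 of the 8, Bcl2l11 and Bmf, had an unadjusted p under 0.05. The CPM values of the genotypes did not overlap for Bcl2, Mcl1, Bcl2l11 and Bmf, and 47.8% of all genes tested were apart in this way. Bmf passed the filter through the group in which it is high, and without it 3 of 7 were apart (42.9%) and 1 of 7, Bcl2l11, had an unadjusted p under 0.05, both near the shares of all genes. The median log2 fold change was 0.03 over the 9 and -0.01 over all genes tested. That of the 9 includes Bcl2l15 and Bmf and is a description only. These are bulk measurements, in which fewer cells of a type and less RNA per cell cannot be told apart.

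**Figure D1:**
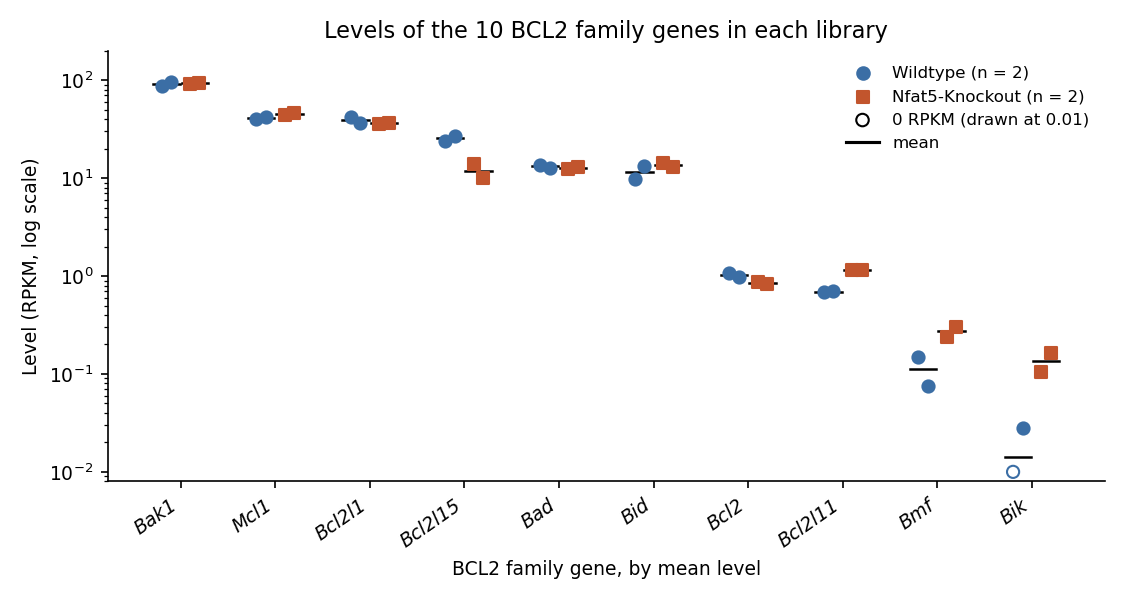
Level of each of the 10 BCL2 family genes in RPKM (log axis) in the 2 WT (circles) and 2 Nfat5-/- libraries (squares), with black bars at the group means and genes ordered by mean level. Bak1 stands at the top at 87.5 to 96.9 RPKM, Bcl2l15 is the abundant gene with the widest gap between genotypes, and Bik, with 0 in WT replicate 1 drawn at the lower edge as an open symbol, is at the bottom.

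The levels spanned a wide range, from Bak1 down to Bik. Bak1 had a mean of 92.4 RPKM over the 4 libraries and ranked 683 among the 25814 genes listed. Mcl1 followed at 43.2 RPKM and Bcl2l1 at 37.8 RPKM, and the ranges of these neighbours overlapped. Bad (13.0 RPKM) and Bid (12.6 RPKM) had a middle place and overlapped. The place of Bcl2l15 (18.7 RPKM over the 4 libraries) depended on genotype: in WT both its values (24.0 and 27.1 RPKM) lay above those of Bad and Bid, and in Nfat5-/- KCs its range of 9.93 to 13.9 RPKM overlapped theirs. Bcl2 (0.942 RPKM) and Bcl2l11 (0.920 RPKM) were 13.4-fold or more below Bid and could not be ordered against each other. Bmf (0.192 RPKM) and Bik (0.0743 RPKM), whose ranges also overlapped, closed the order. In these cultures Bcl2, the founding member of the family, thus contributed 0.994% to 1.29% of the summed RPKM of the 3 pro-survival genes in each library, and Bcl2l1 and Mcl1 the rest.

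Among the pro-survival genes, Bcl2l1 (chr2:152780668-152831728, minus strand, GRCm38) encodes BCL-XL and gave 42.3 and 36.6 RPKM in the WT libraries, against 35.7 and 36.6 RPKM in Nfat5-/- replicates 1 and 2. One WT library stood above the other 3, and the remaining values lay close together. The log2 fold change was -0.10 (SE 0.11, adjusted p = 0.737), and its sign turned to 0.02 without WT replicate 1. Mcl1 (chr3:95658788-95663176, plus strand) encodes a short-lived protein that must be made continuously, and its RNA was at 40.4 and 41.9 RPKM in the WT libraries, against 44.6 and 46.0 RPKM in Nfat5-/- KCs. Both Nfat5-/- libraries lay above both WT libraries by a small margin. The log2 fold change was 0.16 (SE 0.10, adjusted p = 0.514). As a description, the ratio of Bcl2l1 to Mcl1 RPKM was 1.05 and 0.874 in WT and 0.802 and 0.794 in Nfat5-/- replicates 1 and 2.

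Bcl2 (chr1:106538178-106714274, minus strand) was at 1.08 and 0.986 RPKM in the WT libraries, against 0.870 and 0.829 RPKM in Nfat5-/- KCs, which corresponds to 169, 206, 192 and 151 gene reads. The WT libraries were the higher ones and the groups did not overlap. The log2 fold change of -0.27 (SE 0.16) did not pass the test (adjusted p = 0.508). Of the 3 pro-survival genes listed, none passed, 1 had a positive and 2 a negative fold change. The related pro-survival gene Bcl2l2, which encodes BCL-W, was at 5.13 and 5.57 RPKM in the WT libraries, against 5.51 and 5.47 RPKM in Nfat5-/- (adjusted p = 0.877), with 3.09% of its exon reads uniquely assigned. Bcl2l10 had no read in any library, and the Bcl2a1 genes a, b and d did not exceed 0.221 RPKM.

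The effector gene Bak1 (chr17:27019810-27029009, minus strand) had the highest level of the 10 genes and the smallest difference among those tested. It was at 87.5 and 96.9 RPKM in the WT libraries, against 91.6 and 93.7 RPKM in Nfat5-/- replicates 1 and 2, so that the Nfat5-/- values lay between the WT values. The log2 fold change was 0.03 (SE 0.10, adjusted p = 0.935), and its sign turned to -0.03 without WT replicate 1 and to -0.01 without Nfat5-/- replicate 2. Only 17.6% of its exon reads were uniquely assigned, that is, marked as unique by the software, by a rule not given in the sources used here. In the annotation the 9200 bases of Bak1 lie wholly inside the span of Ggnbp1, a gene on the opposite strand with 31 to 51 reads per library. Each of the 3215 uniquely assigned exon reads of Bak1 crossed an exon junction, and scaled to the gene reads of each library these gave 36.9 and 42.2 CPM in WT and 40.9 and 39.9 CPM in Nfat5-/- KCs, with the WT libraries again the lowest and the highest. Whether the counting used strand is not given in the sources used here.

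The other effectors completed the group. Bax, the partner of Bak1 in pore formation, was at 51.3 and 51.6 RPKM in the WT libraries, against 64.3 and 62.7 RPKM in Nfat5-/- replicates 1 and 2. The libraries of each genotype lay close together and apart from the other genotype. Its log2 fold change of 0.32 (SE 0.10) did not pass the test over all genes (adjusted p = 0.192). Bok, a less understood relative of both, was at 36.4 and 40.1 RPKM in the WT libraries, against 35.1 and 32.8 RPKM in Nfat5-/- (log2 fold change -0.15, adjusted p = 0.578). The ratio of Bak1 to Bax RPKM was 1.70 and 1.88 in WT and 1.42 and 1.49 in Nfat5-/- KCs.

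The BH3-only genes fell into an abundant pair and a scarce trio. Bid and Bad together made up 94.1% to 97.0% of the summed RPKM of the 5 genes. Bid (chr6:120891930-120916853, minus strand), whose protein is cleaved by caspase 8 and so links death receptors to the mitochondrion, was at 9.82 and 13.3 RPKM in the WT libraries, against 14.4 and 12.9 RPKM in Nfat5-/- KCs. WT replicate 1 was the lowest library and the other 3 overlapped (log2 fold change 0.24, SE 0.16, adjusted p = 0.543). The WT libraries decided this value, which was 0.04 without WT replicate 1 and 0.49 without WT replicate 2 (adjusted p = 0.127). Its last 913 bases overlap Bcl2l13, a family gene on the opposite strand that held 7453 reads over the 4 libraries. Bad (chr19:6941861-6951898, plus strand), whose protein is kept inactive by phosphorylation when growth factors are present, was at 13.7 and 12.8 RPKM in the WT libraries, against 12.4 and 12.9 RPKM in Nfat5-/- KCs. The ranges overlapped (log2 fold change -0.08, SE 0.12, adjusted p = 0.810), and 590 bases of the gene overlap Gpr137 on the opposite strand. With each library left out in turn its log2 fold change was at -0.01 and -0.15 without WT replicates 1 and 2 and at -0.03 and -0.13 without Nfat5-/- replicates 1 and 2.

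Bcl2l11 (chr2:128126038-128162547, plus strand) encodes BIM, which binds each of the pro-survival proteins and can activate the effectors directly. It was at 0.680 and 0.707 RPKM in the WT libraries, against 1.14 and 1.15 RPKM in Nfat5-/- replicates 1 and 2, from 82, 110, 199 and 154 gene reads. Replicates of one genotype almost coincided and the genotypes were clearly apart, with a ratio of 1.65 between the group means. The log2 fold change was 0.74 (SE 0.18), which did not pass the test over all genes (adjusted p = 0.115). Over 14 alternatives the adjusted p lay between 0.0218 and 0.552 and passed the threshold in 1, the fit without a filter on low counts. Foxo3, a transcription factor known to induce Bcl2l11, was at 9.59 and 9.07 RPKM in the WT libraries, against 11.9 and 13.6 RPKM in Nfat5-/- (log2 fold change 0.48, adjusted p = 0.112). A link between Foxo3 and Bcl2l11 in these libraries was not tested.

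Bmf (chr2:118528757-118549687, minus strand), whose protein is tethered to the actomyosin cytoskeleton and released when epithelial cells lose their anchorage, was at 0.149 and 0.0748 RPKM in the WT libraries, against 0.241 and 0.304 RPKM in Nfat5-/- KCs. These levels rest on 12, 9, 28 and 28 gene reads. Both Nfat5-/- libraries lay above both WT libraries, and it was the Nfat5-/- group that carried the gene past the filter. The log2 fold change of 1.26 had an SE of 0.44 and an adjusted p of 0.260. Bik (chr15:83526862-83544634, plus strand), which encodes a BH3-only protein of the endoplasmic reticulum, had 0 and 1 reads in WT and 4 and 5 reads in Nfat5-/- replicates 1 and 2 and was too scarce to be tested. These reads correspond to 0 and 0.0284 RPKM in WT and to 0.104 and 0.165 RPKM in Nfat5-/- KCs. A count of 0 in WT replicate 1 allows up to 0.185 CPM. The summed counts of 1 and 9 reads gave a ratio of 8.08 with an exact 95% interval of 1.12 to 354, which covers counting error within these libraries only.

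Of the 5 BH3-only genes listed, 4 were tested and none passed, 3 with a positive and 1 with a negative fold change. Summed over the 5, their level was 24.4 and 26.9 RPKM in the WT libraries, against 28.3 and 27.4 RPKM in Nfat5-/- KCs, and the scarce genes add little to the sum. The ratio of summed pro-survival to summed BH3-only RPKM was 3.44 and 2.95 in WT and 2.87 and 3.05 in Nfat5-/- replicates 1 and 2, and the genotypes overlapped. That ratio depends on which BH3-only genes are summed. With Pmaip1, Bbc3 and Hrk added to the 5, a sum made after their values were seen and led by Pmaip1, the ratio was 0.930 and 0.944 in WT and 0.576 and 0.545 in Nfat5-/- KCs, and the genotypes were apart. These are ratios of RNA levels and hold no information on protein.

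**Figure D2:**
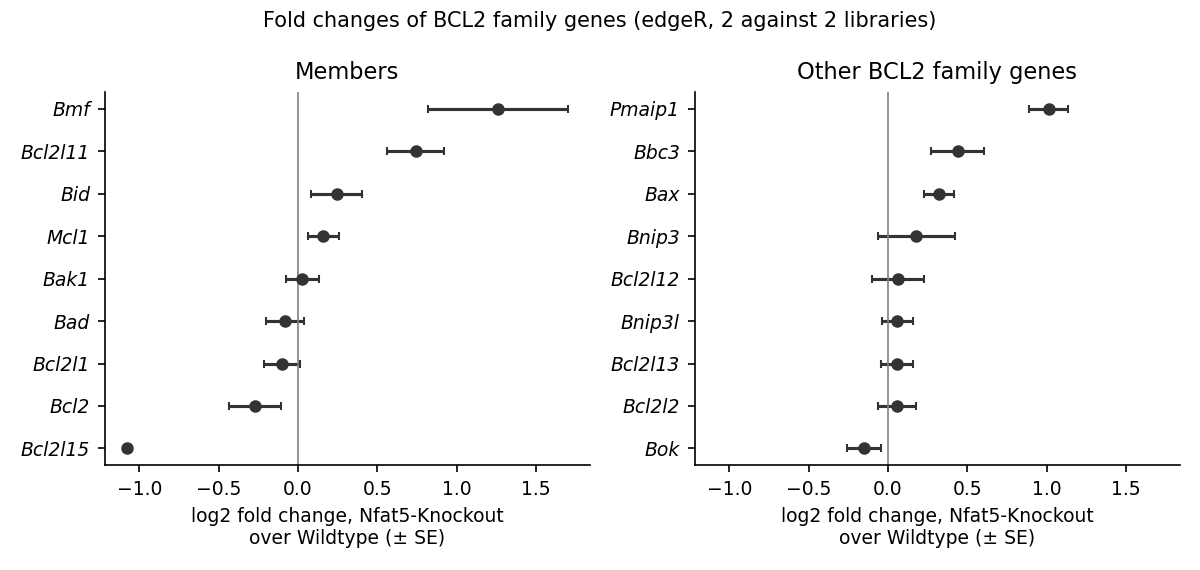
log2 fold change (Nfat5-/- over WT) with its SE from edgeR (none drawn for Bcl2l15, which is given without a test), for the 9 listed genes that were tested (left) and the 9 other BCL2 family genes that were tested (right). Bcl2l15 lies at -1.08 and Pmaip1 at 1.01, Bmf has the longest error bar (SE 0.44), and most of the rest lie within 0.5 of zero.

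Bcl2l15 (ENSMUSG00000044165, chr3:103832601-103854618, plus strand) was at 24.0 and 27.1 RPKM in the WT libraries, against 13.9 and 9.93 RPKM in Nfat5-/- replicates 1 and 2. The gene reads were 895, 1351, 749 and 429, and the deeper Nfat5-/- library had fewer of them than the shallowest WT library. Both Nfat5-/- libraries lay below both WT libraries, and Nfat5-/- replicate 2 was the lowest. The ratio of Nfat5-/- to WT means was 0.467, and the fitted log2 fold change -1.08. Across 17 alternatives the log2 fold change lay between -1.63 and -0.88.

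The annotation at this locus bears on what was counted. GENCODE lists a read-through gene, Gm43064, that begins at the upstream neighbour Ap4b1, runs on in the same direction and ends with 4 exons shared with Bcl2l15. These shared exons hold 569 of the 833 bases of the short transcript Bcl2l15-201 and 468 of its 501 coding bases, and 26.0% of the 2188 exon bases of the gene over all its transcripts. The read-through transcript leaves out the start codon of Bcl2l15, because it is spliced from chr3:103830664 into the first coding exon at chr3:103832865. A read that lies within the shared part fits both transcripts, as the 2 sequences around this point show: 15 bases on either side are printed, from GENCODE M21 on GRCm38, with the shared part in capitals and the part particular to each transcript in lower case.
Bcl2l15-201, first exon, chr3:103832850-103832879, plus strand: cctcggacttttgagGAGCAAACAGAATGC
Gm43064-201, splice junction, plus strand: gatacaacagccaagGAGCAAACAGAATGC

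**Figure D3:**
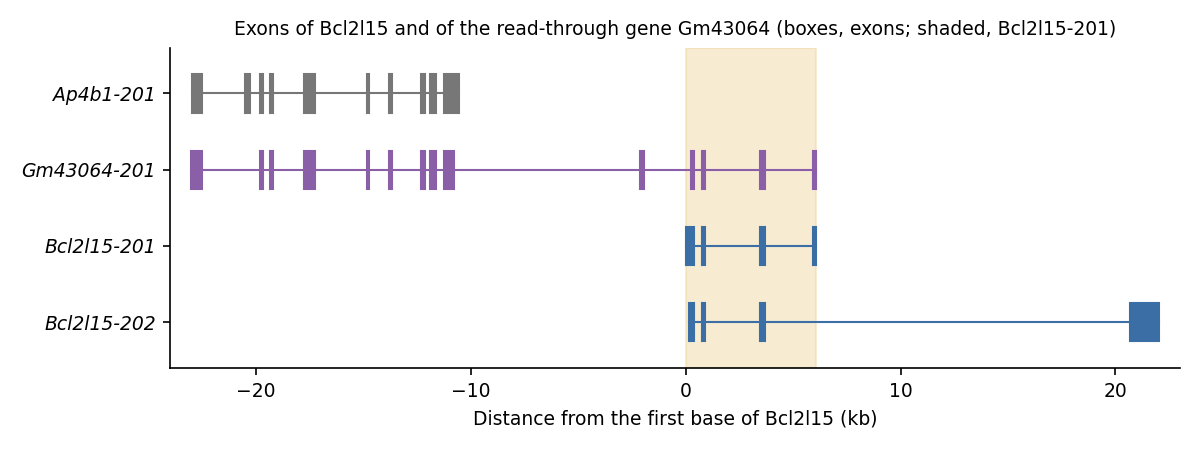
Exons (boxes) and introns (lines) of Ap4b1, of the read-through Gm43064 and of a short and a long transcript of Bcl2l15 from GENCODE M21, drawn to scale by distance in kb from the first base of Bcl2l15, with the span of Bcl2l15-201 shaded. The read-through transcript Gm43064-201 takes most of its 14 exons from the Ap4b1 side and its last 4 from Bcl2l15, so that the whole of Bcl2l15-201 lies within its span.

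Uniquely assigned reads were few: 38 and 90 of 872 and 1311 exon reads in WT, and 21 and 23 of 732 and 415 in Nfat5-/- replicates 1 and 2, or 5.17% of all. The part of the shared exons in this low share was not tested. Scaled to the gene reads of each library they were at 2.34 and 4.16 CPM in WT and at 0.894 and 1.23 CPM in Nfat5-/- KCs. The WT values were again the higher ones, 3.06-fold by the means, with a wide gap between the WT libraries. Reads crossing exon junctions of Bcl2l15 numbered 238 and 347 in WT and 182 and 101 in Nfat5-/-, of which 7 of 868 were uniquely assigned, and in CPM they were 2.33-fold higher in WT. Intron reads numbered 23 and 40 in WT and 17 and 14 in Nfat5-/- (2.22-fold higher in WT in CPM). All of these read classes come from the libraries and contrast in which the gene was noted, and they describe the same difference.

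Gm43064 itself held few reads. It was assigned 36 and 108 exon reads in WT and 115 and 69 in Nfat5-/- replicates 1 and 2, and its log2 fold change was 0.23 (SE 0.35, adjusted p = 0.814). Exon reads of Bcl2l15 and Gm43064 were also added up. This sum, which does not depend on how reads were divided between them, was 908 and 1419 in WT and 847 and 484 in Nfat5-/- KCs. In CPM the sum was 1.96-fold higher in WT, against 2.14-fold for the Bcl2l15 exon reads alone. Gm43064 also shares exons with Ap4b1, so the sum still depends on how reads were divided between Gm43064 and Ap4b1. With the exon reads of Ap4b1 added it was 1252 and 1763 in WT and 1207 and 771 in Nfat5-/- KCs. In CPM this larger sum was 1.71-fold higher in WT. The upstream gene Ap4b1, a subunit of an adaptor complex in vesicle transport, was at 7.12 and 5.34 RPKM in the WT libraries, against 5.14 and 5.17 RPKM in Nfat5-/- (log2 fold change -0.26, adjusted p = 0.553). Of its exon reads 4.12% were uniquely assigned. Downstream, Ptpn22, a phosphatase of immune cells, was at 0.418 and 0.612 RPKM in the WT libraries, against 0.202 and 0.146 RPKM in Nfat5-/-, with a log2 fold change of -1.65 (SE 0.42, adjusted p = 0.136). Immune cell markers summed to 22.7 and 16.8 RPKM in the WT libraries, against 20.0 and 19.8 RPKM in Nfat5-/-, most of it from Cd68, while the leukocyte marker Ptprc did not exceed 0.176 RPKM. The summed level of the melanocyte markers was lower and that of the contractile markers higher in the same libraries in which Bcl2l15 was lower, and their part in the Bcl2l15 difference was not tested. Of the 6 melanocyte markers tested 5 had a negative fold change and 1 passed, whereas Mitf, at 0.249 and 0.204 RPKM in the WT libraries, against 0.258 and 0.315 RPKM in Nfat5-/-, had a positive one, and the ranges of Mlana, which was not tested, overlapped.

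**Figure D4:**
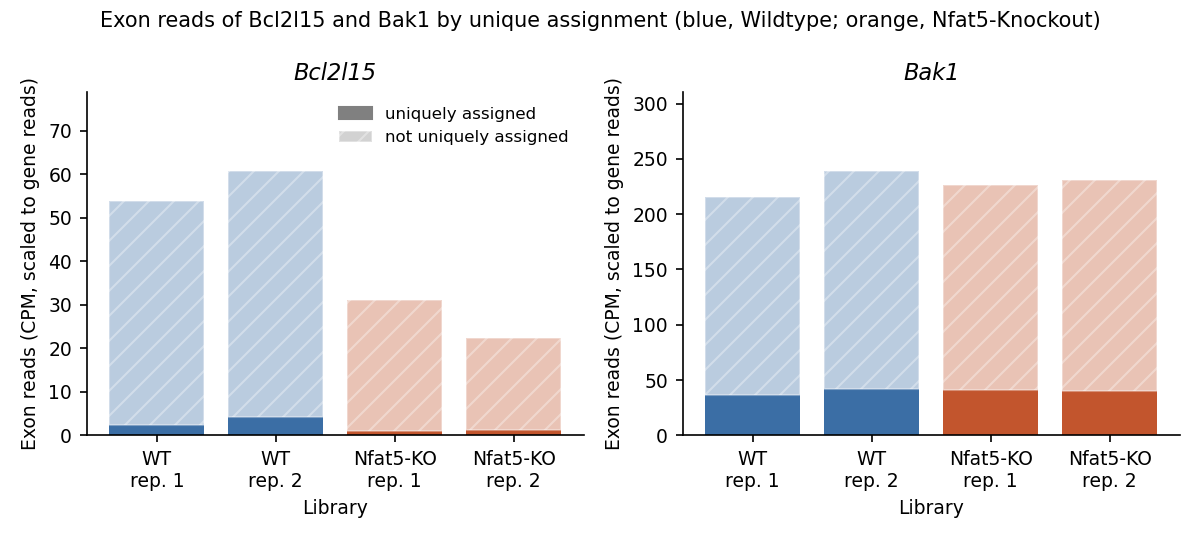
Exon reads in CPM (scaled to the gene reads of each library) of Bcl2l15 (left) and Bak1 (right) in each library, split into uniquely assigned reads (solid) and reads not uniquely assigned (hatched), for WT (blue) and Nfat5-/- (orange). Bcl2l15 stands at 53.8 and 60.7 in WT and at 31.2 and 22.3 in Nfat5-/-, almost all of it hatched, whereas Bak1 is level between the genotypes in both classes.

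Since NFAT5 binds tonicity elements whose core is TGGAAA, promoter windows were searched for these 6 letters on both strands, each window reaching from 250 bases before to 50 after a start site in RefSeq (GRCm38.p6). Windows were at hand for 9 of the 10 genes, Bik being the exception, and 3 of 15 windows (20.0%), belonging to Bcl2l15 and Bmf, held the letters. Of all 32851 promoter windows 21.4% held them. The matches are shown because they are the ones found among the 10 genes, with the motif in capitals, each read in the direction of the gene, 5′ to 3′. The match of Bcl2l15 begins 24 bases after its RefSeq start and lies in the part annotated by GENCODE as 5′ UTR.
Bcl2l15, chr3:103832708-103832737, plus strand: agcagtttcattTGGAAAgttaatgggaac
Bmf, chr2:118544643-118544672, minus strand: gaaacctgacacTTTCCAgctggggagcca
Bmf, chr2:118549778-118549807, minus strand: ccccttataatgTTTCCAagggaaggtttg
In Bmf the letters stand on the opposite strand of the gene. A match describes the sequence, and no binding was measured in these data.

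Of 15 other family genes 9 were tested and 1 passed. Pmaip1 encodes NOXA, a BH3-only protein that binds MCL1 and favours its breakdown, and it was at 60.8 and 53.1 RPKM in the WT libraries, against 107 and 120 RPKM in Nfat5-/- replicates 1 and 2. Both Nfat5-/- libraries lay far above both WT libraries, with means of 56.9 ± 5.45 and 113 ± 8.97 RPKM (SD, n = 2 each). The gene rose by 1.01 on the log2 scale (SE 0.12, edgeR adjusted p = 0.0203), and the adjusted p was 0.0652 without Nfat5-/- replicate 1 and 0.116 without Nfat5-/- replicate 2. In all libraries Pmaip1 was thus above Mcl1, and it was the most abundant BH3-only RNA of those measured. Bbc3, which encodes PUMA, was at 4.96 and 4.17 RPKM in the WT libraries, against 5.79 and 6.22 RPKM in Nfat5-/- (log2 fold change 0.44, SE 0.17, adjusted p = 0.298). The median log2 fold change of the 9 genes was 0.07.

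Downstream of the mitochondrion, none of 14 genes tested passed, and their median log2 fold change was -0.05. Apaf1, the scaffold of the apoptosome, was at 3.20 and 4.21 RPKM in the WT libraries, against 5.36 and 5.39 RPKM in Nfat5-/- (log2 fold change 0.55, SE 0.14, adjusted p = 0.136). Casp6, an executioner caspase gene with the second largest value, had a log2 fold change of 0.05 (adjusted p = 0.929), and Endog, a mitochondrial nuclease, was among the lowest at -0.33 (adjusted p = 0.431). Among death receptor genes, which feed into the family through Bid, none of 9 tested passed and the median was 0.04. The receptor genes Fas (0.71, adjusted p = 0.363) and Tnfrsf10b (0.40, adjusted p = 0.220) had the largest log2 fold changes, and Fadd, the adaptor of the receptors (-0.30, adjusted p = 0.471), and the ligand gene Tnf (-0.24, adjusted p = 0.844) the smallest.

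Of 13 genes that regulate family members by transcription or protein turnover, 12 were tested and none passed (median log2 fold change -0.04). Mdm2, the ubiquitin ligase and target of p53, was at 25.6 and 32.3 RPKM in the WT libraries, against 42.1 and 42.2 RPKM in Nfat5-/- (log2 fold change 0.56, SE 0.13, adjusted p = 0.103). Foxo3, described beside Bcl2l11, came next. At the other end stood Ddit3, the stress factor CHOP (-0.70, adjusted p = 0.312), for which WT replicate 1 with 26.5 RPKM was set apart from the other 3 libraries at 10.1 to 13.6 RPKM. E2f1, a cell cycle factor, was at 10.4 and 10.6 RPKM in the WT libraries, against 8.06 and 6.84 RPKM in Nfat5-/- (-0.48, adjusted p = 0.132). Without a filter on low counts 8 genes of these 4 lists passed, beside 1137 of all 18043 genes tested. With DESeq2 3 passed, beside 426 of all 12614.

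**Figure D5:**
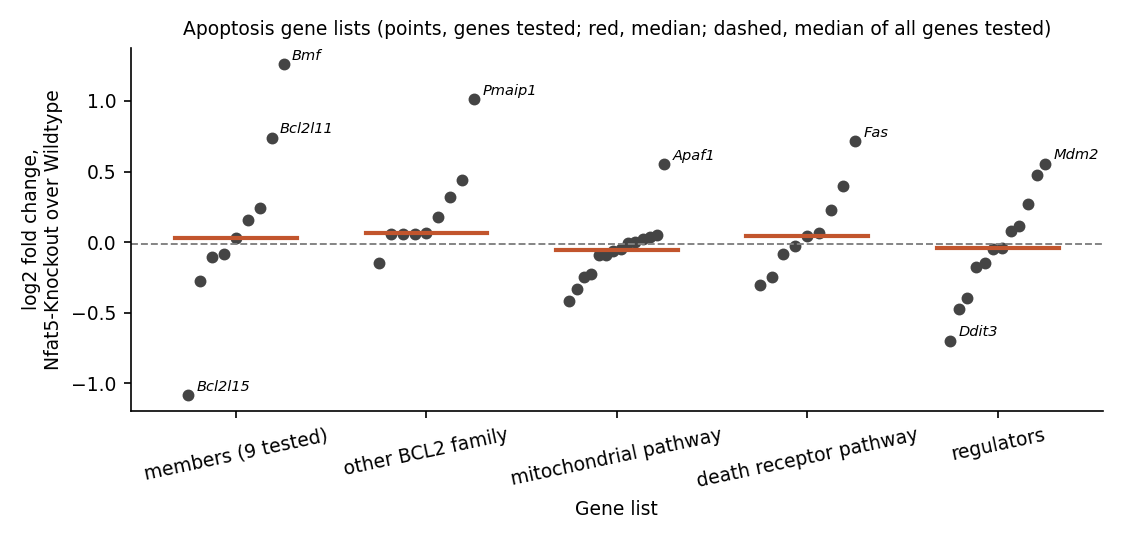
log2 fold changes (Nfat5-/- over WT) of the genes tested in the listed BCL2 family and in 4 lists of related apoptosis genes, with each list's median in red and the median of all genes tested as a dashed line at -0.01. The medians lie between -0.05 and 0.07, close to the dashed line, and that of the listed genes includes Bcl2l15 and Bmf. Bmf and Bcl2l15 are the extremes of the listed genes, and Pmaip1 is on top of the other family genes.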

How the data were processed

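KC RNA was converted to poly(A) mRNA libraries, and the authors trimmed the single-end reads and aligned them to GRCm38 in CLC Genomics Workbench with default RNA-Seq settings. The deposited tables give whole-number read counts per gene (total, exon, junction and intron, each with its uniquely assigned part) and the authors' RPKM values, which use exon reads and are written with decimal commas. Whether counting used strand is not given in the sources used here.

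Counts of total gene reads were tested with edgeR 4.0.16 in R 4.3.3: filterByExpr, TMM factors (0.980 to 1.01), genotype as sole term, two-sided quasi-likelihood test, Benjamini-Hochberg adjustment over all genes tested, threshold 0.05. SE is the log2 fold change divided by the square root of F. The test was also run on counts simulated with the spread fitted to these same libraries, and the outcome is not reported here. Groups were taken from the sample titles. Alternatives were other scalings, filters, read classes, DESeq2 1.42.0, limma 3.58.1 on log2 RPKM with pseudocounts of 1 and 0.1, a replicate block and leaving out each library. Same-numbered libraries did not deviate together (r = -0.10 across 12614 genes), so replicate numbers were not used as pairs.

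The members, gene lists and tests were chosen with earlier results of these data known. Text names all 10 members, of each other list the genes past the threshold or else the 2 largest and 2 smallest log2 fold changes, the family genes Bax, Bok, Bbc3, Pmaip1 and Bcl2l2, and genes overlapping or next to a member. One gene that this rule names is not reported here. Marker lists were written for keratinocytes (0 of 8 tested passed), melanocytes, fibroblasts (0 of 3), smooth muscle, immune cells (0 of 3) and endothelial cells (0 of 2). Intervals and floors of 3 counts cover counting error only, since the reads carry no molecular identifiers.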

Additional observations from a re-analysis of the deposited data

How the results depend on the processing

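Over all 9 tested members, 121 of 127 alternative values kept their direction and side of the threshold or, for Bcl2l15, moved by less than the spread between replicates. The exceptions were Bcl2l1 without WT replicate 1 (log2 fold change 0.0204), Bak1 without WT replicate 1 (-0.0336) and without Nfat5-/- replicate 2 (-0.0056), where leaving out 1 library at a time gave -0.209 to 0.0204 for Bcl2l1 and -0.0336 to 0.0988 for Bak1, Bcl2l11 without a filter on low counts (0.74, adjusted p = 0.0218), and Bcl2l15 on uniquely assigned exon reads (-1.63) and without Nfat5-/- replicate 1 (-1.32). Genes called numbered 1137 without a filter (723 higher), 426 with DESeq2 (306 higher) and 16 to 467 with 1 library left out, against 160 (119 higher). Members called were 2 without a filter (Bcl2l15 and Bcl2l11), 0 on uniquely assigned exon reads, and 0 to 1 with 1 library left out, 0 without either Nfat5-/- library. Nothing is read from the Bcl2l15 calls, since its difference entered the choice. Of the 4 related lists, 8 genes passed without a filter, 3 with DESeq2 (Pmaip1, Foxo3 and Mdm2) and 0 to 4 with 1 library left out (4 without WT replicate 2, 0 without either Nfat5-/- library). The replicate block left 132 genes called, 109 of them shared with the fit without it, called 1 member (Bcl2l15), and gave Bcl2l11 an adjusted p of 0.184. The cause of these changes was not tested. The sums and read classes of Bcl2l15 and the alternatives for Pmaip1 were chosen after seeing the data. With 12, 9, 28 and 28 reads for Bmf and 10 for Bik, depth limits both genes.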
